A study of Homo sapiens with 51 samples.

Results

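The genes described here are HEG1 and 5 genes around it: KRIT1, CCM2 and PDCD10, whose products form the cerebral cavernous malformation (CCM) complex, and RASIP1 and KLF2. These 6 rows were taken by symbol from a table of 25421 gene symbols and followed through all 17 groups of libraries. HEG1 was chosen by its measured counts, which were lower in libraries labelled OVOL2 than in mCherry libraries of every transduced line, so its values in that contrast are given as a description without a test. The other 5 genes were picked as its partners, and their values in the same contrast were tested.

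HEG1 is a transmembrane receptor with a mucin-like outer part, and its short cytoplasmic tail binds KRIT1. KRIT1, CCM2 and PDCD10 are the scaffold proteins of the CCM complex, and loss of any of them causes cavernous malformations of brain vessels. In endothelial cells the complex restrains the kinase MEKK3 (MAP3K3), whose signal runs through MEK5, ERK5 and MEF2 factors to the transcription factors KLF2 and KLF4, and RASIP1 is a Rap1 effector that has been described as a binding partner of HEG1. HEG1 is also known as a surface antigen of mesothelial cells. In RefSeq on GRCh38.p14 the genes lie at chr3:124965710-125055997 (HEG1), chr7:92198969-92246100 (KRIT1), chr7:44999746-45076470 (CCM2), chr3:167683298-167734892 (PDCD10), chr19:48720585-48740610 (RASIP1) and chr19:16324826-16328685 (KLF2).

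Gene counts came from PLATE-seq, a 3′-end RNA-seq method in which wells are barcoded and pooled, in 51 libraries of 5 established human pancreatic ductal adenocarcinoma lines, in 17 groups of 3. The 5 groups of KP4, of PANC1 and of PK45H were untreated cells, mCherry (a fluorescent protein, the negative control reading frame), OVOL2 (a zinc-finger transcription factor of epithelial cells), mCherry + M2rtTA and OVOL2 + M2rtTA. M2rtTA is a transactivator of tetracycline-inducible promoters that was delivered by a second lentivirus. HPAFII and PATU8988S were represented by untreated libraries only.

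All transduced cells, the mCherry controls included, received lentivirus at a multiplicity of infection of 2 with 8 µg/ml polybrene, and from the next day 2.5 µg/ml puromycin and 0.6 µg/ml doxycycline. Culture lasted 6 days in all, and 100 ng of total RNA entered each library. The submitters call the transduced lines morphogenic. Nothing in the labels says that the 3 untreated libraries of a line came from separate cultures. The titles of the transduced groups likewise give only a replicate number. All p-values, those over lines included, therefore measure only the spread between libraries of a group, which may be technical.

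Library totals were 1165399 to 7490556 counts. The introduced gene was checked first. OVOL2 summed to 54 counts over the 9 libraries labelled OVOL2 without M2rtTA and to 56 over the 9 mCherry libraries, a log2 fold change over the lines of -0.09 (adjusted p = 0.926, edgeR quasi-likelihood test). With M2rtTA it summed to 178 against 42 counts, and rose by 2.15 ± 0.44 (SE) on the log2 scale (adjusted p = 0.00021), with 62 of the 178 counts in KP4 OVOL2 + M2rtTA replicate 2. The counts thus go against the label in the arm without M2rtTA, so its libraries are called "labelled OVOL2" throughout. With M2rtTA, OVOL2 lay above its controls in KP4 and PK45H but overlapped them in PANC1. There the OVOL2 + M2rtTA libraries held 6, 20 and 9 counts, against 7, 3 and 2 in mCherry + M2rtTA and 13, 10 and 2 in untreated cells. The sources used here do not say whether the 3′ assay counts a transcript of the introduced reading frame. Of 6 epithelial markers tested over the lines, 4 rose without M2rtTA and 6 with it, where 9.32% and 15.7% of all genes rose. In PANC1 alone, KRT19 fell in both arms (-1.07 and -0.56).

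The promoters of the gene chosen and of the transcription factor that lies downstream of the complex are printed here. With RASIP1 left aside for its few counts, these members differed most within single lines between libraries labelled OVOL2 and their controls. Averaged over the lines that holds for HEG1, which was not tested in this contrast, and not for KLF2, whose changes had opposite signs. Each is the 250 bases upstream of the start in RefSeq on GRCh38.p14, read 5′ to 3′ on the gene's own strand. HEG1 lies on the minus strand of chromosome 3 and its promoter at chr3:125055998-125056247. KLF2 lies on the plus strand of chromosome 19 and its promoter at chr19:16324576-16324825. A HEG1 transcript of GENCODE starts downstream of the RefSeq start used here, and its first 11 bases equal the last 11 of the RefSeq table's entry, on the same strand. Capitals mark the only match to the motifs searched, a MEF2 motif in the KLF2 promoter.
HEG1: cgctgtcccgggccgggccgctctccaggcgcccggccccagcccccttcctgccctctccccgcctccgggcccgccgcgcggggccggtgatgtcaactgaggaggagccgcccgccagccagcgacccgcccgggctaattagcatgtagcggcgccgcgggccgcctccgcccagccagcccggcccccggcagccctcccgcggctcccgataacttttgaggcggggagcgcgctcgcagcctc
KLF2: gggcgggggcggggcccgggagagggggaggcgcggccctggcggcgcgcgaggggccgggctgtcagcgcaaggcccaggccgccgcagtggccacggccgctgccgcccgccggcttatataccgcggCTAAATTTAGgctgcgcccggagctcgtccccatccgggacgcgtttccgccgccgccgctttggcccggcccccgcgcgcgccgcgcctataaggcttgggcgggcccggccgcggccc

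The motifs searched on both strands were CCGTTA (OVOL), CAGGTG (the E-box of ZEB factors, which overlaps none of the others), CCACCC (KLF) and the MEF2 motif by its name. Of 35116 RefSeq promoters of the same length, 2.45% held the OVOL letters, 17.5% the ZEB E-box, 31.3% the KLF letters and 2.8% the MEF2 motif. None of these letters stands in the HEG1 window. The KLF2 match starts at base 131 of its window. KRIT1, PDCD10 and CCM2 have more than 1 RefSeq start and so more than 1 window. Every window of KRIT1 and PDCD10, and that of RASIP1, held 1 KLF match, and those of CCM2 held none. These matches describe letters in a window and nothing about binding.

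HEG1 was low in every library labelled OVOL2. In CPM (counts scaled to the library total with TMM factors), the KP4 mCherry libraries were at 35.8, 33.7 and 32.5 and those labelled OVOL2 at 6.33, 9.84 and 8.22. In PANC1 the mCherry libraries were at 91.6, 98.9 and 92.3 and those labelled OVOL2 at 21.7, 16.2 and 20.6. In PK45H they were at 44.7, 36.2 and 42.3 against 4.09, 3.11 and 3.36. The groups did not overlap in any line, and the PK45H libraries labelled OVOL2 rested on 16 to 18 counts each.

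With M2rtTA the picture of HEG1 was alike. KP4 mCherry + M2rtTA stood at 26.5, 23.2 and 33.1 CPM and OVOL2 + M2rtTA at 5.98, 7.67 and 3.02, the last of these from 12 counts. PANC1 stood at 100.4, 90.7 and 107 against 9.83, 16.0 and 14.4. PK45H stood at 49.1, 49.3 and 55.1 against 6.80, 6.86 and 7.87. All 6 pairs of groups were thus separate. At an adjusted p under 0.05, the share of all genes called was 6.82% and 22.4% (without and with M2rtTA) for KP4, 5.08% and 13.9% for PANC1, 8.39% and 15.9% for PK45H, and 18.1% and 32.9% of 14943 genes over the lines. Nothing is read from these shares for HEG1, which was chosen for this contrast.

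Relative to the mCherry mean of its line and arm, HEG1 in KP4 was left at 23.9% without M2rtTA and 20.1% with it. The same shares were 20.7% and 13.5% in PANC1, and 8.57% and 14.0% in PK45H. Averaged over the lines, its log2 fold change was -2.64 without M2rtTA and -2.65 with it. These values are a description, because HEG1 was chosen for this contrast. Adding M2rtTA did not shift the level in 1 direction: the difference between the arms was -0.21 in KP4, -0.61 in PANC1 and 0.84 in PK45H, with an average of -0.01 (-0.37 to 0.35). Over the same libraries the arm difference of OVOL2 itself was 2.25 (adjusted p = 0.0268, with 7.72% of genes called). In bulk RNA, fewer cells with a transcript and less transcript per cell cannot be told apart.

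**Figure D1:**
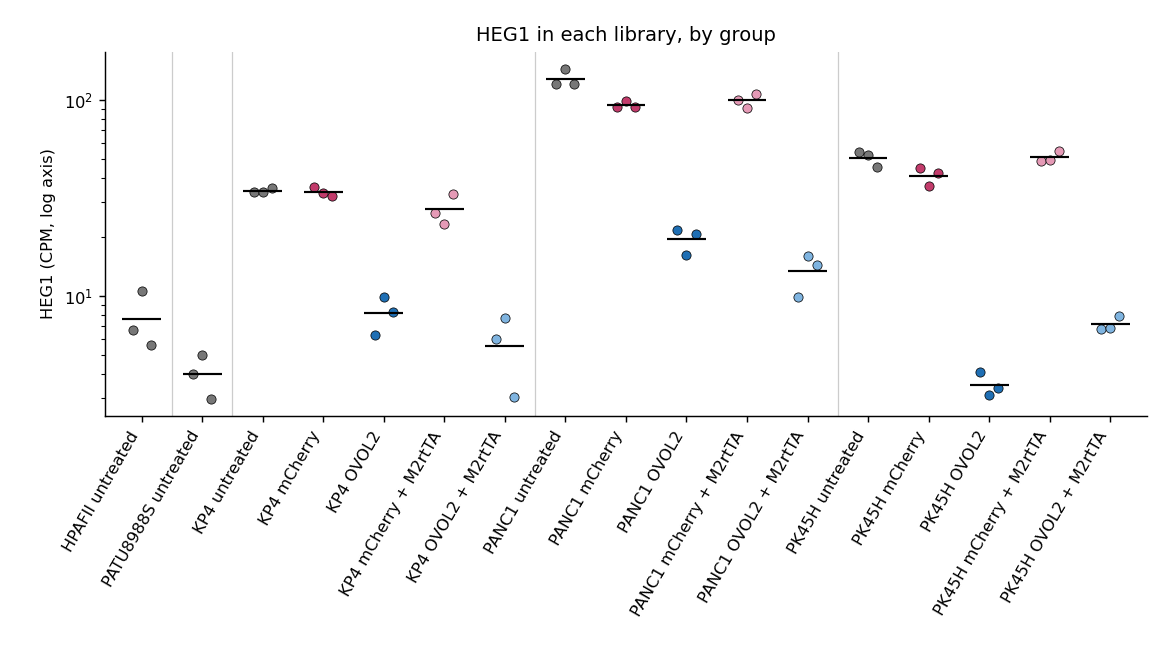
HEG1 level (CPM, log axis) in all 51 libraries by group; points are libraries and bars are the means of 3. Libraries labelled OVOL2 lie between 3.02 and 21.7 CPM, below every mCherry and untreated library of their own line, and HPAFII and PATU8988S lie at 2.95 to 10.5 CPM without any virus.

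Transduction, selection and M2rtTA without OVOL2 gave no called change in the members. HEG1 in mCherry against untreated libraries differed by -0.01 in KP4, -0.45 in PANC1 (91.6 to 98.9 against 120.2 to 145 CPM, adjusted p = 0.308) and -0.25 in PK45H on the log2 scale. Over the 6 comparisons of mCherry with untreated and of mCherry + M2rtTA with mCherry, 0 of 28 gene tests of the members passed edgeR's test, 1 had an unadjusted p under 0.05 (HEG1 in PANC1, above) and 0 passed with DESeq2. Their log2 fold changes ran from -0.47 to 0.36. Of all genes, 0.598% passed for mCherry against untreated in PANC1, 0.00736% for the same in PK45H and 0.0294% for mCherry + M2rtTA against mCherry in PK45H, and 0% in the other 3 comparisons.

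The untreated lines, whose libraries took no part in choosing HEG1, differed widely in it. The order was PANC1 with 129 ± 13.9 CPM (SD, n = 3), PK45H with 50.7 ± 4.59, KP4 with 34.4 ± 1.02, HPAFII with 7.59 ± 2.60 and PATU8988S with 3.97 ± 1.01. The mean of HPAFII and PATU8988S was lower than that of the 3 transduced lines by a log2 fold change of -3.45 ± 0.16 (SE, adjusted p = 1.24e-09, edgeR), in a comparison in which 34.8% of 13785 genes passed. That difference was already known when the genes were chosen and is no independent support.

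Of the neighbours in this order, PANC1 exceeded PK45H by 1.4 on the log2 scale (adjusted p = 0.000167, 25.6% of genes called). HPAFII was below KP4, with a log2 fold change of -2.17 (adjusted p = 9.79e-06, 29.9% called). KP4 against PK45H did not pass (-0.56, adjusted p = 0.0593, 23.5% called), but 3 of 9 other ways of fitting called it: DESeq2 (0.0131), edgeR on all 51 libraries (0.0330) and edgeR on the groups compared alone (0.0181). HPAFII exceeded PATU8988S by 0.89 (adjusted p = 0.0347, 20.2% called), a call that was lost in 4 of 9 other ways of fitting, with DESeq2 (0.0544), without a filter (0.0783), thinned (0.0659) and on the groups compared alone (0.168). It was also lost without HPAFII replicate 1 (0.0772), HPAFII replicate 2 (0.160), PATU8988S replicate 1 (0.0806) or PATU8988S replicate 3 (0.157).

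OVOL2 itself ran the other way when untreated HPAFII and PATU8988S were set against the transduced lines. It had 22.9 CPM in PATU8988S, 5.13 in HPAFII and at most 1.91 on average in the 3 transduced lines. Within the transduced lines its untreated means were 1.91 CPM in PANC1, 0.883 in PK45H and 0.641 in KP4, the order of HEG1. These means rest on 25, 16 and 10 counts and the libraries of these lines overlapped, so no order of OVOL2 is established. HPAFII replicate 2, with 2 counts of OVOL2, lay below PANC1 replicates 1 and 2 (2.89 and 2.26 CPM). All libraries labelled OVOL2 of KP4 and PK45H, with or without M2rtTA, had HEG1 levels within the range of the HPAFII and PATU8988S libraries (2.95 to 10.5 CPM). Of those of PANC1, at 9.83 to 21.7 CPM, 1 of 6 lay in it. The upper end of that range is HPAFII replicate 2, with 14 counts in the smallest library, and without it the range ends at 6.65 CPM. Above 6.65 CPM lay KP4 libraries at 9.84, 8.22 and 7.67, PK45H OVOL2 + M2rtTA at 6.80, 6.86 and 7.87, and all those of PANC1.

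The 3 subunits of the CCM complex did not change over the lines by the size seen for HEG1. Over the lines, 0 of 3 passed edgeR's test in either arm, where 18.1% of genes passed without M2rtTA and 32.9% with it. With only 3 genes, a count of 0 is close to these shares, and nothing is read from it. Without M2rtTA, 2 of 3 (CCM2 and PDCD10) had an unadjusted p under 0.05, with opposite signs, and with M2rtTA 0 of 3 had one. DESeq2 also called 0 of 3 in both arms. In single lines 0 of 3 passed in any of the 6 comparisons, with either tool.

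KRIT1, the scaffold that binds the HEG1 tail, stood between 7.24 and 22.5 CPM in all transduced lines and groups. In KP4 the libraries labelled OVOL2 held 14.5, 14.0 and 16.9 CPM and the mCherry libraries 11.6, 12.8 and 16.0. In PK45H, where HEG1 was at its lowest share, KRIT1 stood at 11.8, 12.8 and 12.2 against 17.6, 7.24 and 11.9. The groups overlapped in all 6 comparisons, and the OVOL2 means were 93.7% to 123% of the mCherry means. Over the lines the log2 fold change was 0.09 (95% interval -0.22 to 0.41, adjusted p = 0.743) without M2rtTA and 0.11 (-0.20 to 0.43, adjusted p = 0.629) with it. A change of the size seen for HEG1 lies outside both intervals.

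CCM2, the adaptor that links KRIT1 to MEKK3, leaned down without M2rtTA and up with it. In KP4 it stood at 10.2, 8.33 and 9.33 CPM in libraries labelled OVOL2 against 13.8, 15 and 9.83 in mCherry. With M2rtTA, KP4 stood at 10.6, 11.7 and 12.1 against 11.5, 11.6 and 7.51. The groups overlapped in all 6 comparisons, and OVOL2 means were 72.0% to 126% of the mCherry means.

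Over the lines the log2 fold change of CCM2 was -0.34 (-0.63 to -0.05, adjusted p = 0.10) without M2rtTA and 0.24 (-0.05 to 0.53, adjusted p = 0.201) with it. The difference between the arms was 0.58 (0.17 to 0.99) and did not pass in edgeR (adjusted p = 0.0726), while DESeq2 called it (0.040). A single library weighed on both: PK45H mCherry replicate 2, with 17 counts of CCM2 where the other PK45H mCherry libraries had 58 and 74. Without it the value was -0.43 (adjusted p = 0.0214) without M2rtTA and the arm difference 0.67 (adjusted p = 0.0203), and without PK45H mCherry + M2rtTA replicate 3 the arm difference was 0.66 (adjusted p = 0.0413).

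PDCD10, which joins the complex to GCKIII kinases, leaned the opposite way to CCM2 over the lines, though not in PANC1 with M2rtTA, where its mean was 109.6% of mCherry and that of CCM2 112%. Without M2rtTA the PK45H libraries labelled OVOL2 held 18.3, 19.5 and 23.5 CPM and the mCherry libraries 16.1, 17.5 and 13. These groups did not overlap, yet the log2 fold change of 0.33 did not pass (adjusted p = 0.420), and 8.39% of genes passed in that comparison. With M2rtTA, PK45H held 16.4, 7.87 and 9.95 CPM against 17.5, 14.6 and 14.3. There the groups overlapped through OVOL2 + M2rtTA replicate 1, and without it the log2 fold change went from -0.37 (adjusted p = 0.314) to -0.73 (adjusted p = 0.0382).

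Over the lines PDCD10 had a log2 fold change of 0.28 (0.02 to 0.54, adjusted p = 0.129) without M2rtTA and -0.18 (-0.44 to 0.08, adjusted p = 0.314) with it. The difference between the arms was -0.46 (adjusted p = 0.122), and -0.57 (adjusted p = 0.0376) without PK45H OVOL2 + M2rtTA replicate 1. The effect was not found to differ between lines for KRIT1 (adjusted p = 0.943 without and 0.834 with M2rtTA), CCM2 (0.923 and 0.900) or PDCD10 (0.963 and 0.509), in edgeR tests with 2 degrees of freedom.

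**Figure D2:**
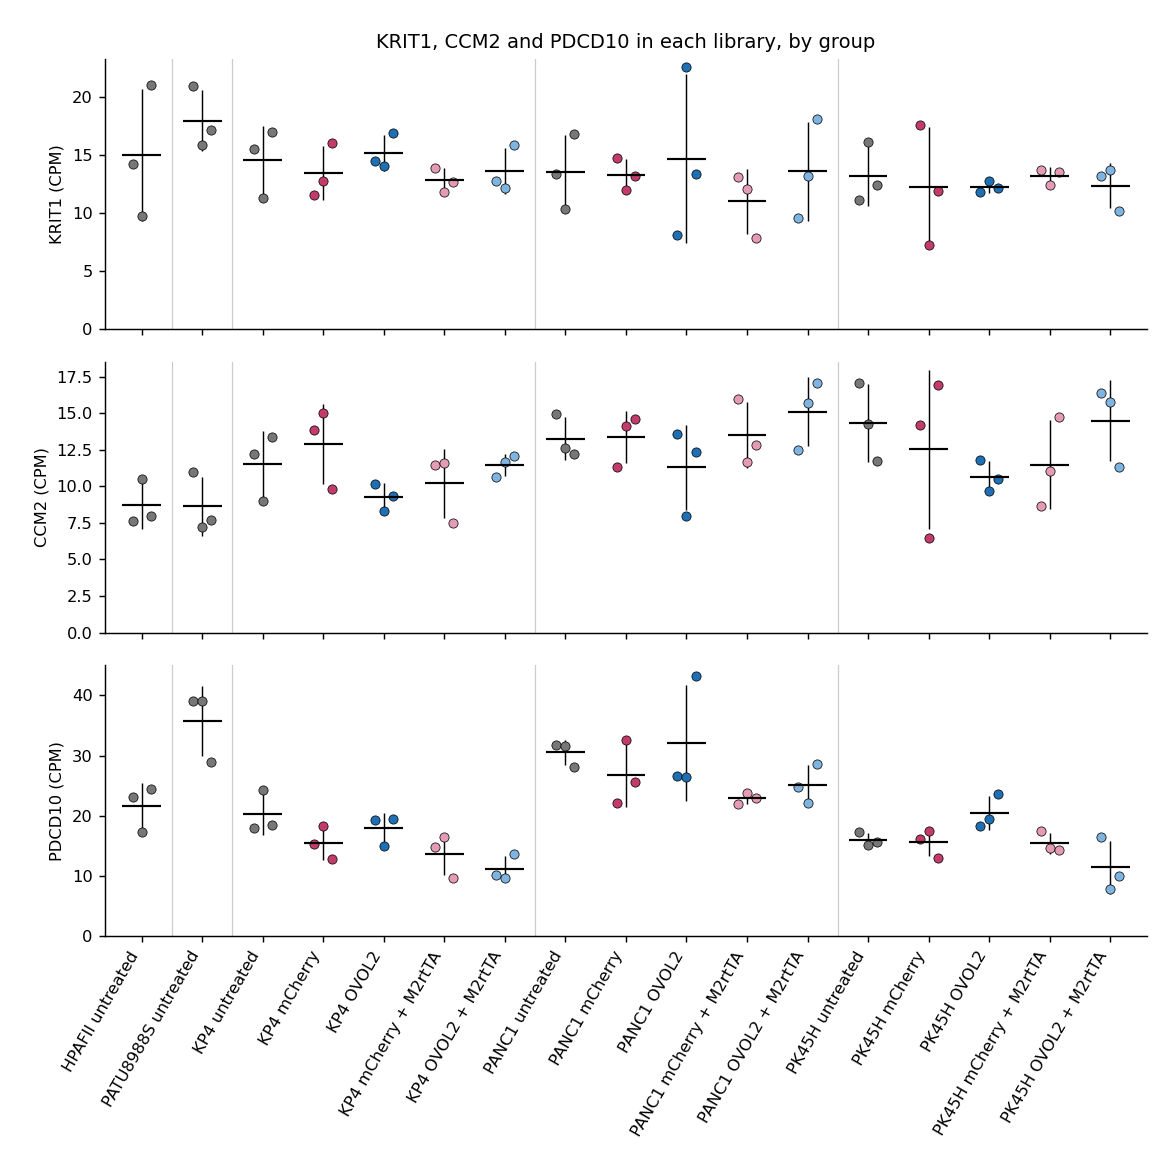
KRIT1, CCM2 and PDCD10 levels (CPM) in all 51 libraries by group; points are libraries, bars are means of 3 and lines are ± 1 SD. The libraries labelled OVOL2 overlap their mCherry controls in all comparisons but that of PDCD10 in PK45H without M2rtTA (18.3 to 23.5 against 13 to 17.5 CPM). Nothing is read from that case, because an exact two-sided permutation test of 3 against 3 libraries cannot give a p under 0.1.

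Among the untreated lines the subunits spread far less than HEG1, and 2 of 3 passed in the comparison of HPAFII and PATU8988S with the others, where 34.8% of genes did. CCM2 was lower in HPAFII (8.71 ± 1.59 CPM) and PATU8988S (8.62 ± 2.03) than in KP4 (11.5 ± 2.25), PANC1 (13.3 ± 1.45) and PK45H (14.3 ± 2.69), by a log2 fold change of -0.56 ± 0.17 (SE, adjusted p = 0.0162). PDCD10 was higher, by 0.42 ± 0.12 (adjusted p = 0.0119, and 0.0539 without a filter on low counts), but the pair was not uniform. PATU8988S held 39.1, 39.1 and 29 CPM and HPAFII 23.1, 17.3 and 24.5, and HPAFII was below PATU8988S with a log2 fold change of -0.66 (adjusted p = 0.0210), a call lost without PATU8988S replicate 1 (0.0669) or 2 (0.0742). KRIT1 differed by 0.32 ± 0.17 (adjusted p = 0.168).

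RASIP1 was barely detected. It had at most 8 counts in any library (PATU8988S replicate 1) and fell under the filter on low counts in every fit. It summed to 4 counts over the 9 libraries labelled OVOL2 and 12 over the mCherry libraries without M2rtTA, and to 17 against 16 with it. An exact two-sided permutation test of log2(CPM + 1) over the lines gave p = 0.207 and p = 0.969 (8000 assignments). No direction can be drawn at this depth.

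KLF2, a transcription factor that the CCM complex is known to hold down in endothelium, moved in opposite directions in different lines. In KP4 it was higher: the mCherry libraries held 7.0, 8.32 and 4.11 CPM and those labelled OVOL2 11.9, 12.9 and 10.6. With M2rtTA they held 5.96, 4.29 and 4.62 against 10.8, 10.8 and 12.3. In neither arm did the groups overlap, and the OVOL2 means were 182% and 229% of the mCherry means.

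In KP4 with M2rtTA, KLF2 rose by 1.19 ± 0.24 (SE) on the log2 scale (adjusted p = 0.00283, edgeR), in a comparison in which 22.4% of genes passed and 9.91% rose. Without M2rtTA it rose by 0.85 ± 0.23 (adjusted p = 0.0422), where 6.82% passed and 3.26% rose. The rise with M2rtTA held whichever library was left out (adjusted p = 0.00485 to 0.0155). That without M2rtTA did not: it was lost without mCherry replicate 1 (adjusted p = 0.108) or 3 (0.138) and without OVOL2 replicate 1 (0.0985), 2 (0.135) or 3 (0.0699), and in 6 of 9 other ways of fitting (adjusted p = 0.0307 to 0.286 over all 9).

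In PK45H, KLF2 was lower with M2rtTA. The mCherry + M2rtTA libraries held 2.58, 3.56 and 3.39 CPM and OVOL2 + M2rtTA 1.00, 1.02 and 0.463, from 5, 4 and 2 counts. The groups did not overlap, and KLF2 fell to 26% of the mCherry mean, a log2 fold change of -1.85 ± 0.44 (SE, adjusted p = 0.0114), in a comparison in which 15.9% of genes passed and 8.4% fell. Leaving out any 1 of the 6 libraries gave adjusted p-values of 0.0168 to 0.0497. Without M2rtTA the groups overlapped (4.81, 2.76 and 1.68 against 3.67, 3.81 and 5.26 CPM) and the log2 fold change of -0.55 did not pass (adjusted p = 0.403).

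PANC1 had little KLF2, at most 13 counts in a library. The libraries labelled OVOL2 held 1.63, 1.88 and 1.24 CPM against 1.81, 0.667 and 1.28, and with M2rtTA 0.240, 1.96 and 2.68 against 0.667, 0.974 and 0.413. The groups overlapped in both arms. KLF2 was under the filter in the PANC1 fit, and the fit of all 45 libraries of the 3 lines gave 0.40 (adjusted p = 0.762) and 1.24 (adjusted p = 0.143). Exact two-sided permutation tests of its 3 against 3 libraries gave p = 0.5 and p = 0.4, where the smallest possible is 0.1.

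The test of whether the KLF2 effect differed between the lines passed with M2rtTA (adjusted p = 0.00279, edgeR with 2 degrees of freedom, where 7.56% of genes passed) and not without it (adjusted p = 0.344, where 2.74% did). After thinning all libraries to the smallest total the first of these was not called (adjusted p = 0.233). Averaged over lines, KLF2 therefore stood near 0: 0.24 (-0.27 to 0.75, adjusted p = 0.568) without M2rtTA and 0.19 (-0.40 to 0.77, adjusted p = 0.670) with it. Beside these, the log2 fold changes of HEG1 with M2rtTA were -2.28 in KP4 and -2.77 in PK45H. The reference annotation lists 4 processed pseudogene copies of KLF2, none of them in the count table, so reads shared with a copy could have been assigned to KLF2.

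**Figure D3:**
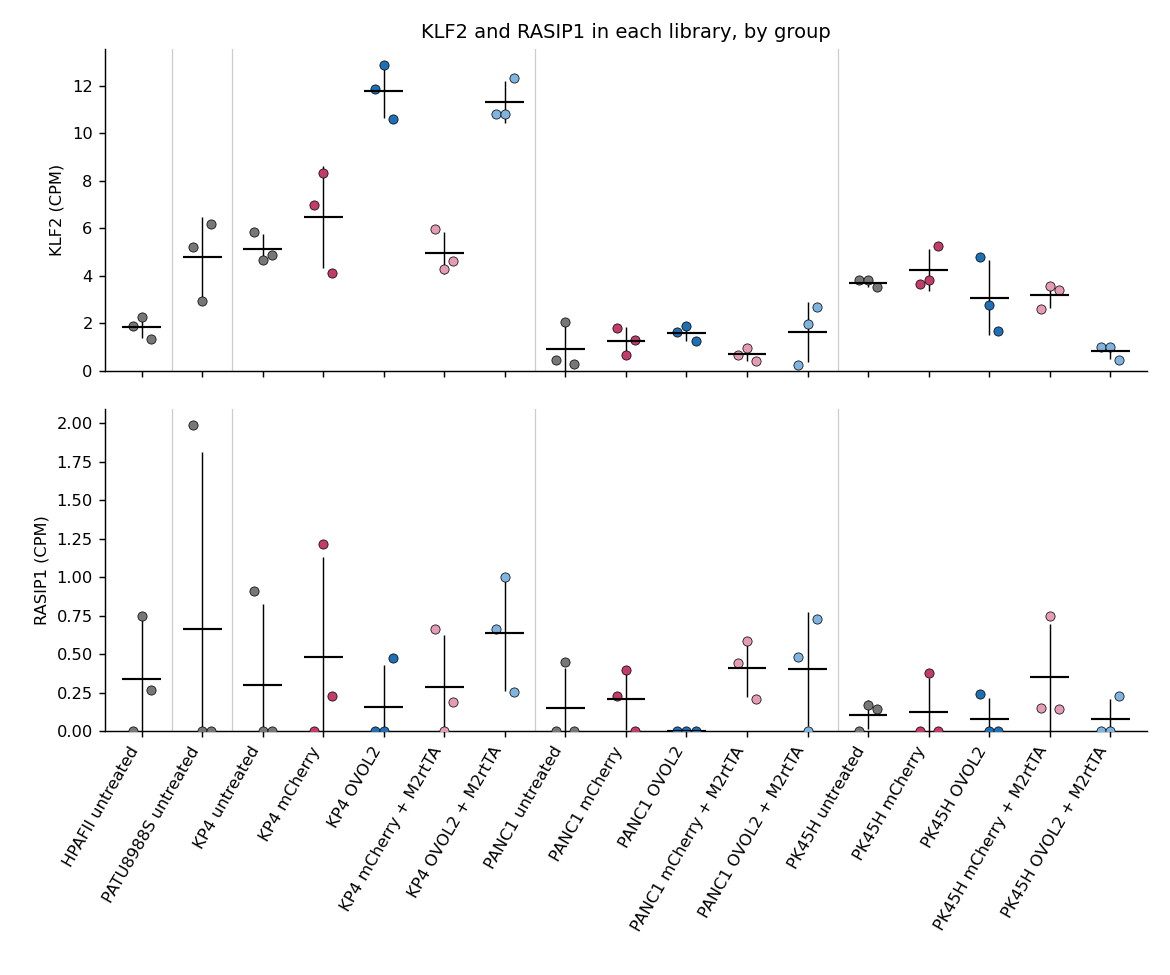
KLF2 and RASIP1 levels (CPM) in all 51 libraries by group; points are libraries, bars are means of 3 and lines are ± 1 SD, cut at 0. KLF2 lies at 10.6 to 12.9 CPM in the KP4 libraries labelled OVOL2 and at 0.463 to 1.02 CPM in PK45H OVOL2 + M2rtTA; RASIP1 is at or near 0 everywhere.

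Before any virus, KLF2 was highest in KP4 (5.13 ± 0.613 CPM), PATU8988S (4.79 ± 1.68) and PK45H (3.71 ± 0.176), and lower in HPAFII (1.83 ± 0.466) and PANC1 (0.921 ± 0.966). KP4, PATU8988S and PK45H were not separated from each other. HPAFII was not separated from PATU8988S (adjusted p = 0.0734), PK45H (0.173) or PANC1 (0.322). It was below KP4 (-1.47, adjusted p = 0.0412), a call lost with the replicate block (0.0676) and without HPAFII replicate 1 (0.0878) or 3 (0.157) or KP4 replicate 1 (0.102), 2 (0.0642) or 3 (0.0690). KP4 exceeded PANC1 by 2.34 on the log2 scale (adjusted p = 0.00406, 21.9% of genes called) and PATU8988S exceeded PANC1 by 2.27 (adjusted p = 0.00404, 29.3% called). This order is not that of HEG1, and HPAFII and PATU8988S together did not differ from the other lines (0.16, adjusted p = 0.739).

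**Figure D4:**
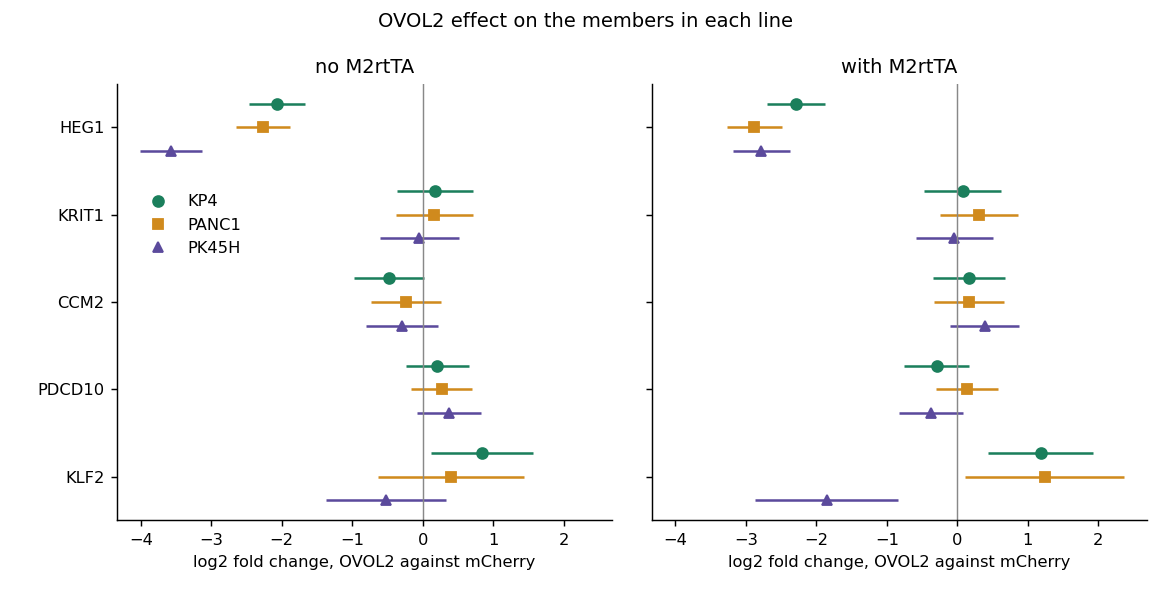
Log2 fold change of OVOL2 against mCherry in each line and arm for HEG1, KRIT1, CCM2, PDCD10 and KLF2, from 1 fit of 45 libraries. Lines are 95% intervals. Those of HEG1 are no test, because it was chosen for this contrast. HEG1 lies between -3.58 and -2.07 in all 6 cases, the CCM subunits lie around 0, and KLF2 lies above 0 in KP4 (0.85 and 1.18) and below 0 in PK45H (-0.52 and -1.85).

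Other genes of the pathway were read from 5 lists chosen with earlier results of these data known. A gene passing in 1 arm only is named after its value was seen. Over the lines, 9.32% of all genes rose and 8.81% fell without M2rtTA, and 15.7% rose and 17.3% fell with it. Among 11 partners of the complex, 1 rose and 1 fell without M2rtTA and 2 rose and 3 fell with it, with a median log2 fold change of -0.05 and -0.20, beside medians of 0.00 and 0.03 over all genes. SNX17, a sorting nexin that binds KRIT1 and recycles integrins, fell in both arms, by 0.48 (adjusted p = 0.000629) and by 1.00 (adjusted p = 9.2e-10). Its effect differed between the lines in both arms (adjusted p = 0.0413 and 0.00309).

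SNX17 stood in KP4 at 21.3, 25.7 and 20.9 CPM in libraries labelled OVOL2 against 38.6, 33.9 and 44.6, and with M2rtTA at 16.0, 8.17 and 11.8 against 42.8, 33.3 and 28.1. In PANC1 it stood at 30.3, 24.9 and 31.3 against 46.1, 50.7 and 48.4, and with M2rtTA at 25.9, 23 and 26.3 against 65.5, 56.5 and 46.5. The PK45H values were 41.8, 39.6 and 41.4 against 34.7, 33.9 and 43.2, with overlap (adjusted p = 0.824), and -0.29 on the log2 scale with M2rtTA (adjusted p = 0.175). Both calls over the lines held without any 1 library.

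In the arm with M2rtTA, ITGB1BP1 (ICAP1, which binds KRIT1 and the integrin β1 tail) fell by 0.48 and ARHGAP29, a GTPase-activating protein that acts with RASIP1, fell by 0.89. ANKS1A rose by 0.74 there, and CCM2L, a paralog of CCM2, by 1.03, a call that was lost in 14 of 18 fits with 1 library left out. AFDN (afadin, a Rap1 effector at cell junctions) rose without M2rtTA by 0.49, a call lost without KP4 mCherry replicate 1, PANC1 OVOL2 replicate 3 or PK45H OVOL2 replicate 1. The Rap1 genes themselves did not pass: RAP1A had 0.21 and 0.08 and RAP1B -0.19 and -0.20 on the log2 scale.

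In the arm from MEKK3 to the KLF factors, 3 of 9 genes rose and 1 fell without M2rtTA, and 4 rose and 3 fell with it, with medians of 0.38 and 0.16. MAP3K3, the gene of the kinase MEKK3, fell in both arms, by 0.83 (adjusted p = 0.000197) and by 0.55 (adjusted p = 0.00725). In PK45H it stood at 15.9, 14.0 and 12 CPM against 33.0, 24.0 and 32.2, without overlap. In KP4 with M2rtTA it overlapped, with 10.6, 16.3 and 16.9 CPM against 23.6, 12.6 and 14.2.

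MEF2D, a transcription factor activated by ERK5, rose by 0.75 (adjusted p = 2.62e-06) and by 1.05 (adjusted p = 1.16e-09). Its KP4 mean went from 45.4 ± 6.43 CPM in mCherry to 84.8 ± 11.7 in libraries labelled OVOL2. SMURF1, a ubiquitin ligase that binds CCM2, rose by 0.40 and 0.33. Each of these calls, and those of MAP3K3, held whichever library was left out. Thinned to the smallest total, the calls of MAP3K3 with M2rtTA (adjusted p = 0.0825) and of SMURF1 without it (0.119) were lost.

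KLF4, the paralog of KLF2 in this pathway, rose by 0.80 (adjusted p = 0.0239) and 0.71 (adjusted p = 0.0396) over the lines, and the lowest adjusted p within a single line was 0.0584, in PK45H. Its level was highest in PK45H, where KLF2 was lower with M2rtTA: 12.6 ± 1.98 CPM against 6.87 ± 1.35 without M2rtTA and 14.1 ± 4.27 against 9.69 ± 1.89 with it. The KLF4 call was lost without KP4 mCherry replicate 1 or 3, KP4 OVOL2 replicate 1 or PANC1 OVOL2 replicate 2, with adjusted p-values up to 0.126, and in the arm with M2rtTA in 10 of 18 such fits, up to 0.106. It was also lost in 2 of 9 other ways of fitting without M2rtTA (up to 0.731) and in 3 of 9 with it (up to 0.183).

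In the arm with M2rtTA, MAP2K5 (MEK5) fell by 1.29 (adjusted p = 5.36e-07). MEF2A rose by 0.67 and MEF2C fell by 0.68, calls lost in 9 and 8 of 18 fits with 1 library left out. MAPK7, the gene of ERK5, had 0.38 (adjusted p = 0.0982) and 0.16 (0.477), and MAP3K2 had -0.02 and -0.07.

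Of 13 genes known as KLF2 or KLF4 targets in endothelium, 11 could be tested. Without M2rtTA 1 passed, a rise, and with M2rtTA 2 rose and 3 fell, with medians of -0.16 and -0.01. ASS1, an enzyme of arginine synthesis, rose in both arms, by 0.56 (adjusted p = 0.0293) and 1.23 (adjusted p = 1.19e-06), and the first of these calls was lost in 7 of 18 fits with 1 library left out. ASS1 rose in PK45H in both arms and in KP4 with M2rtTA.

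NOS3, endothelial nitric oxide synthase, rose by 1.26 with M2rtTA (adjusted p = 0.000297), and differed between the lines (adjusted p = 0.0107). In PK45H, the line in which KLF2 fell, it had 15.4 to 25.4 CPM in OVOL2 + M2rtTA against 1.31 to 3.98 in mCherry + M2rtTA. ADAMTS1 fell by 1.4, BMP6 by 1.21 and EDN1 by 0.48 in that arm. Thrombomodulin (THBD) had -0.12 and -0.20 and THBS1 -0.16 and -0.06, none past the threshold. AQP1 had too few counts for a usable error.

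Of 18 genes of the STRIPAK and GCKIII assemblies, with which PDCD10 associates, 17 could be tested. Without M2rtTA 4 passed, all rises, and with it 4 rose and 1 fell, with a median of 0.20 in both arms. SIKE1 rose in both, by 0.50 (adjusted p = 5.22e-05) and 0.35 (adjusted p = 0.00139). Among the others that rose without M2rtTA were STRN (0.45) and MOB4 (0.28), and with it CTTNBP2NL (0.48), STK24 (0.27) and PPP2R1A (0.22). Thinning to the smallest total ended the calls of ANKS1A and BMP6 above. The calls of MOB4, STK24 and PPP2R1A were lost in 12, 6 and 13 of 18 fits with 1 library left out.

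The STRIPAK gene that fell was STRIP2, by 2.84 with M2rtTA, and it rested on KP4 mCherry + M2rtTA replicate 1, without which its log2 fold change was -1.42 (adjusted p = 0.0922). The kinase gene STK25 and the scaffold gene STRN4 did not pass in either arm (0.11 and 0.22, and 0.04 and 0.03).

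RhoA and ROCK signalling is known to increase in endothelium that lacks CCM proteins. Of its 14 genes 1 rose and 2 fell without M2rtTA, and 2 rose and 2 fell with it, with medians of 0.02 and 0.01. ROCK2 fell in both arms, by 0.30 (adjusted p = 0.0144, and 0.0820 thinned to the smallest total) and by 0.71 (adjusted p = 4.73e-08). MYL9, a myosin light chain, rose by 0.49 (adjusted p = 0.0290, lost in 8 of 18 fits with 1 library left out) and 0.77 (adjusted p = 0.000219). The effect on MYL9 differed between the lines with M2rtTA (adjusted p = 0.0313) and was not found to without it (0.0726). It passed in PANC1, where the mean went from 82.2 ± 3.09 to 201 ± 33.5 CPM and from 103 ± 11.7 to 304 ± 48.5. In single arms MYH10 fell without M2rtTA by 0.36 (lost in 6 of 18 such fits), and with it MYL12A fell by 0.85 and RHOB rose by 0.46. RHOA had 0.04 and -0.21, and ROCK1 -0.35 and -0.37, none past the threshold.

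**Figure D5:**
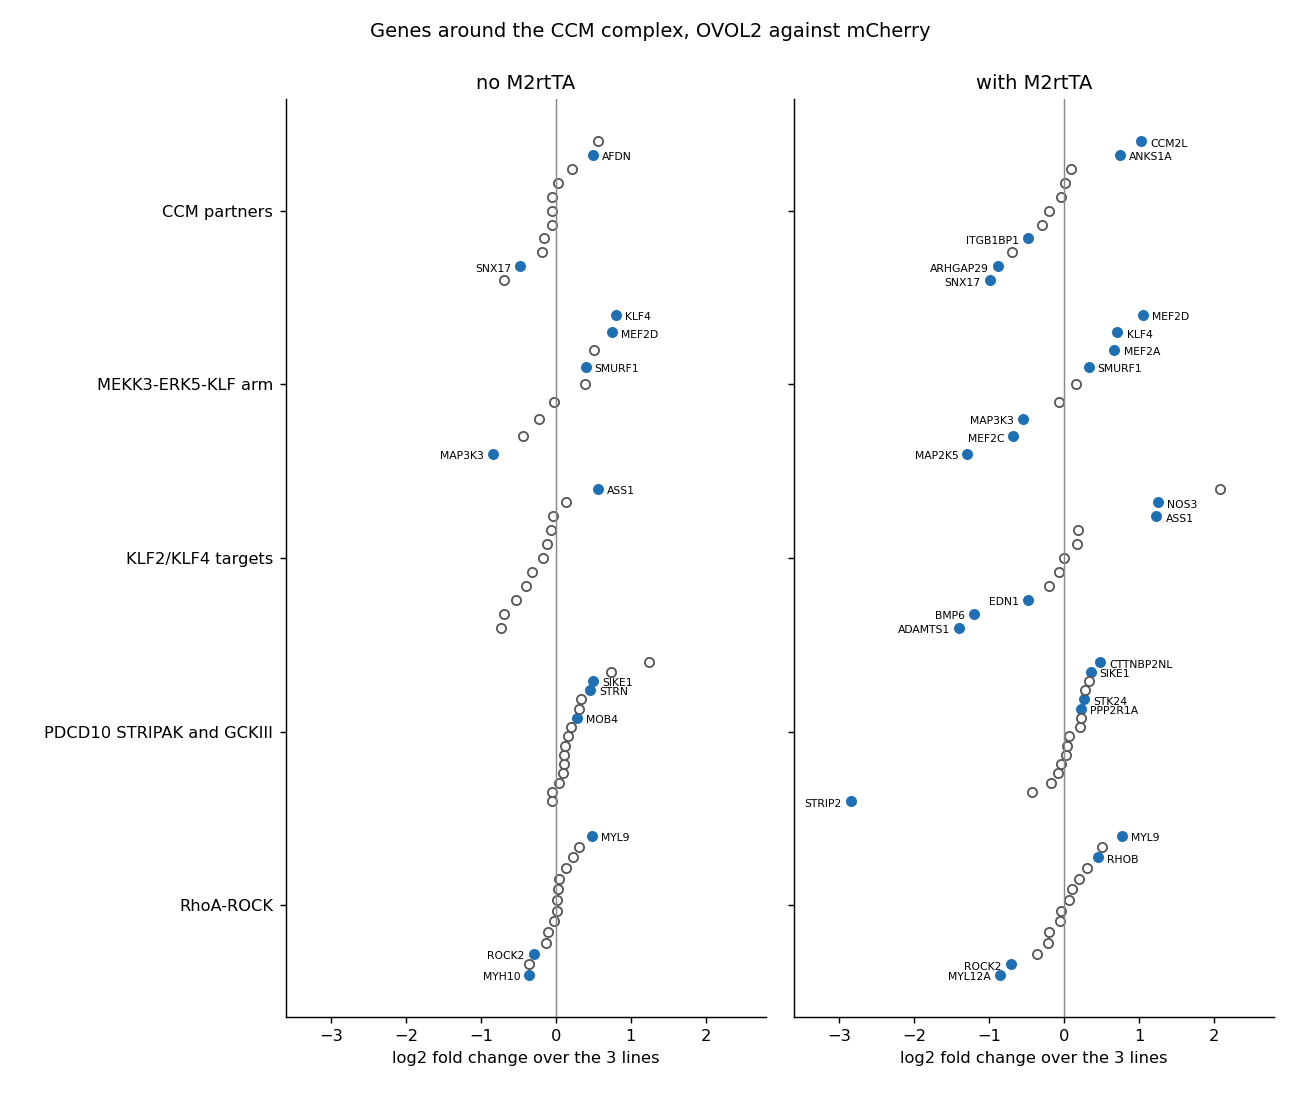
Log2 fold change of OVOL2 against mCherry over the 3 lines for the genes of the 5 pathway lists, by arm; filled points have an adjusted p under 0.05 and open points do not. The STRIPAK and GCKIII list is drawn without 1 gene. SNX17 (-0.48 and -1.0), MAP3K3 (-0.83 and -0.55), MEF2D (0.75 and 1.05) and ROCK2 (-0.30 and -0.71) pass in both arms, and most points of each list lie within 1 unit of 0. The open point at 2.08 among the KLF2/KLF4 targets is AQP1, whose error could not be used.

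The pathway is best known in endothelium, so endothelial markers were counted in these lines. TEK was at 0 in 39 of 51 libraries and CLDN5 in 42 of 51, and KDR had at most 7 counts. In contrast, PECAM1, CDH5, ESAM and EGFL7 had counts in every library, with medians of 4.53, 1.49, 3.46 and 28.6 CPM. EGFL7 had the highest median of the 10 markers and weighs most in their sum. Of the 10 markers 7 could be tested, and the calls over the lines were rises of ESAM by 1.00 and 1.54 and of VWF by 1.85 with M2rtTA, where 9.32% and 15.7% of all genes rose. In PANC1 with M2rtTA, EGFL7 fell by 0.70 (adjusted p = 0.0495). The call of ESAM without M2rtTA was lost without KP4 mCherry replicate 2 (adjusted p = 0.0570). Their summed level ranged from 23.5 to 71.0 CPM over the groups of the transduced lines, with KP4 OVOL2 + M2rtTA at 38.0 to 58.4 against 34.9 to 39.6 in mCherry + M2rtTA, PK45H at 57.7 to 71.0 against 49.5 to 64.9, and PANC1 at 23.5 to 32.2 against 27.8 to 35.5. Their part in the KLF2 values was not tested.

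Mesothelial markers were counted because HEG1 is a mesothelial antigen. Of 4 tested, 3 rose with M2rtTA (MSLN by 0.56, CALB2 by 0.49 and UPK3B by 1.46), where 15.7% of all genes rose. In single lines WT1 fell in PANC1 with M2rtTA (-2.31) and CALB2 in KP4 without it (-1.33). Without M2rtTA and over the lines the 4 had log2 fold changes of -0.74 to 0.69, none past edgeR's threshold, and CALB2 and UPK3B had an unadjusted p under 0.05 in opposite directions. Of 7 mesenchymal markers, 3 and 4 fell over the lines, where 8.81% and 17.3% of all genes fell, with medians of -0.50 and -0.96. In PK45H, where 653 of 13583 genes fell without M2rtTA and 1141 with it, 2 of the 7 markers fell in each arm. Their summed level in PK45H was 99.3 to 134 CPM in libraries labelled OVOL2 against 250.3 to 306 in mCherry, and with M2rtTA 191 to 228 against 288 to 301. In PANC1 it was 655 to 753 against 2664 to 3029, and with M2rtTA 624 to 808 against 2609 to 2865. VIM makes up most of this sum, with a median of 485 CPM over all libraries, and ZEB1 is next with 12.9. The part of mesenchymal markers in the HEG1 values was not tested.

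The genes whose group means were most like those of HEG1 were sought over the 17 groups among 10273 genes with at least 5 CPM on average. On log2(CPM + 1), the highest Pearson coefficients were those of BCOR (0.925), a transcriptional corepressor, SOX12 (0.923), MAP3K20 (0.920), POPDC3 (0.919) and LOXL2 (0.912), a lysyl oxidase of the extracellular matrix. The lowest were those of NQO1 (-0.931), a quinone reductase, CHRNE (-0.912) and MAP7 (-0.905). The 17 points share 5 lines and 2 treatments, so these coefficients describe the groups.

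SOX12 shows the likeness in levels: it had 45.6 CPM in untreated PANC1, 38.4 with mCherry and 21.6 in libraries labelled OVOL2, and 18.6 and 20.9 CPM in HPAFII and PATU8988S. NQO1 ran the opposite way, with 156, 182 and 301 CPM in PANC1 and 517 and 715 CPM in HPAFII and PATU8988S. Of the other members, CCM2 had a coefficient of 0.53, PDCD10 0.14 and KRIT1 -0.43. KLF2 (-0.38) and RASIP1 (-0.16) were under 5 CPM on average and not eligible. With ranks in place of values, 3 of the 5 highest and 2 of the 3 lowest genes were shared, and over the 15 groups of the transduced lines 1 and 0.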

How the data were processed

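The authors deposited 1 table of raw counts per gene symbol for 51 PLATE-seq libraries, as whole numbers without normalisation, and its columns were matched to samples by the labels' descriptions. Per the submitters' processing notes, kallisto 0.44.0 and GRCh38 were used, with no role stated. The annotation, the handling of molecular identifiers and whether counts are rounded estimates are not given in the sources used here. If amplification copies were counted, precision is overstated. If transcript ends of overlapping genes or copies were shared, single genes could be shifted, as for KLF2 and for KRIT1, which overlaps MIR1285-1 in the table.

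The deposited counts entered edgeR 4.0.16 under R 4.3.3 (filterByExpr by group with a minimum count of 10, TMM scaling, glmQLFit and glmQLFTest, two-sided). Each transduced line had 1 fit of 15 libraries, the contrasts over lines 1 fit of 45 and the untreated lines 1 fit of 15. Benjamini-Hochberg adjustment ran over all genes tested: 13662 in KP4, 13218 in PANC1, 13583 in PK45H, 14943 over lines and 13785 untreated. RASIP1 passed no filter and KLF2 did not pass that of PANC1; these were compared by exact permutation. Levels are CPM with TMM factors. The steps were tested on simulated data. No 2 libraries were duplicates (0 identical pairs).

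Genes named by rule were the 6 members, OVOL2, list genes called in both arms in the same direction, up to 2 per list not called, and the 5 most and 3 least alike to HEG1. List genes called in 1 arm only were named outside this rule, after their values were seen. Members and lists were chosen with earlier results of these data known. The settings varied were DESeq2 1.42.0 as the tool, RLE in place of TMM, the filter (absent, or a mean count of 10 or more), robust dispersion, a replicate block, counts thinned to the smallest total, 1 fit of all 51 libraries or of the compared groups only, and omission of single libraries. Sequences and positions came from RefSeq (GRCh38.p14). A gene of the STRIPAK and GCKIII list enters its counts and is not reported here by name.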

Additional observations from a re-analysis of the deposited data

Results flagged for a closer look

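The OVOL2 effect on KLF2 differed between KP4, PANC1 and PK45H with M2rtTA (adjusted p = 0.00279, edgeR test of the difference with 2 degrees of freedom), where 7.56% of genes passed. KLF2 stood at 10.8 to 12.3 CPM against 4.29 to 5.96 in KP4 and at 0.463 to 1.02 against 2.58 to 3.56 in PK45H. All 3 KP4 libraries thus lay above their controls and all 3 PK45H libraries below theirs. Exact two-sided permutation tests of log2(CPM + 1) gave p = 0.1 in each of these 2 lines, the smallest possible with 3 against 3 libraries. The adjusted p was 0.000416 to 0.0145 when single libraries were left out, and 0.233 after every library had been thinned to the smallest total. The PK45H values rest on 11 counts in 3 libraries.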

How the results depend on the processing

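Of 731 refits of the results over lines and in the untreated comparison, 720 were counted as the same, and 0 reversed a called value. Same meant the same side of the threshold for tested values and gene counts within 1.5-fold. For HEG1 under OVOL2 it meant a shift smaller than the mean SD within groups. An uncalled value that changed sign was counted as the same: KRIT1 over lines with M2rtTA, at 0.11, ran from -0.07 to 0.13 over 9 other ways of fitting. Without a filter on low counts, PDCD10 in HPAFII and PATU8988S against the other lines had a log2 fold change of 0.39 (adjusted p = 0.0539). With every library thinned to 1165399 counts, the test of KLF2 between lines with M2rtTA gave an adjusted p of 0.233. Thinning also lowered the genes called over lines from 2710 to 1512 without M2rtTA and from 4923 to 3233 with it, those that differed between lines from 409 to 184 and from 1129 to 434, and those of the untreated comparison from 4794 to 3121; fewer counts enter these fits. Between lines, DESeq2 called 640 genes without M2rtTA, and fits of only the groups compared called 246 and 487. Leaving out 1 library moved CCM2 without M2rtTA between -0.43 and -0.25. The arm difference of HEG1 in KP4, of -0.21, ranged from -0.50 without OVOL2 + M2rtTA replicate 2 to 0.047 without replicate 3 of that group, where its sign reversed.

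Replicate numbers were not found to pair libraries: 12 of 45 libraries correlated best with their own number, and 7 of 90 pairs exceeded a correlation of 0.1. With the replicate block HEG1 over lines had log2 fold changes of -2.64 and -2.66, and the KLF2 rise in KP4 without M2rtTA had an adjusted p of 0.0578. The calls of KLF2 with M2rtTA in KP4 (adjusted p = 0.000624 to 0.0488) and PK45H (0.00807 to 0.0350) were kept under all alternatives run. Low counts limit KLF2 in PANC1 and PK45H, and RASIP1 everywhere.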

Other observations

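Among the genes most like HEG1, LOXL2, a lysyl oxidase known from matrix remodelling and from mesenchymal cells, had mean levels of 55.4 CPM in untreated PK45H, 46.5 with mCherry and 8.21 in libraries labelled OVOL2. In PANC1 LOXL2 had 45.6, 36 and 12 CPM, and in HPAFII and PATU8988S 8.85 and 4.77. CDH5 is the junctional cadherin of endothelium with which HEG1 and the CCM proteins are known to act. It had counts in every library, at 0.151 to 5.06 CPM, as did PECAM1, ESAM and EGFL7. TEK had at most 2 counts and CLDN5 at most 4.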
